A study of Mus musculus with 16 samples.

Results

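The mitochondrial ribosomal protein genes, named Mrpl for the large and Mrps for the small subunit, were followed in B16-OVA tumors of mice given a MEK inhibitor, an agonist CD40 antibody, both, or neither. They were chosen by symbol: every probe set whose only gene symbol in the platform annotation was Mrpl or Mrps followed by a digit, with the probe set of highest mean signal standing for each gene. This gave 76 genes, 47 Mrpl and 29 Mrps, out of 18193 genes on the array, and 156 of 45037 probe sets. Mrpl30 and Mrpl53 were not measured.

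The arrays, made by Affymetrix, held RNA of 16 whole tumors, 4 from each treatment. The tumor cells, mouse melanoma cells given the ovalbumin gene, grew under the skin of C57BL/6-Ly5.1 mice 6 to 12 weeks old until day 18 after inoculation. MEKi+CD40 mice received GDC-0623, an inhibitor of the kinase MEK, at 30 mg/kg daily, and also agonist anti-CD40 antibody, which was injected on days 3, 5 and 7 of treatment and once more 1 day ahead of analysis. MEKi mice received GDC-0623 with a control immunoglobulin. CD40 mice received the drug's vehicle with the anti-CD40 antibody, and control mice the vehicle with the control immunoglobulin. All tumors therefore came from 1 cell line carrying a foreign antigen, injected with Matrigel. Values are log2 signals after the RMA method, so a negative difference means less signal in the group named first. Each piece of tumor held tumor cells with stroma and infiltrating leukocytes, so fewer cells of a type and less RNA per cell cannot be told apart.

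Mitochondria keep their own ribosome, the mitoribosome, which translates the few messages of mitochondrial DNA into core subunits of the respiratory chain. Its RNAs come from mitochondrial DNA, but all of its proteins are encoded in the nucleus, made in the cytosol and imported. Some are counterparts of bacterial ribosomal proteins and others are found only in mitochondria. The genes are active in all nucleated cells, and growing cells make new mitochondria at each division.

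All 76 genes gave a signal above the background of 4.94, the level below which 95% of olfactory receptor probe sets lay, and which 30.2% of all genes did not pass. Mean signals lay between 7.49 for Mrpl1 and 12.54 for Mrpl51. The probe sets of 8 genes, those of Mrps12, Mrpl37 and Mrpl15 among them, are of the design that can also bind related transcripts. Mrps36 is counted by its symbol, although in mammals the protein is a subunit of the alpha-ketoglutarate dehydrogenase complex and not of the mitoribosome.

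RefSeq promoter windows, from 250 bases before to 50 bases after the start site in build GRCm38.p6, were at hand for 67 of the 76 genes. They were searched on both strands for 4 short motifs bound by factors known to act on nuclear genes for mitochondrial proteins. The NRF1 motif GCGCANGCG was found in 15 of these 67 genes (22.4%), against 7.03% of the 27025 genes with a window. The ETS motif CCGGAAGT, bound by GABP, was found in 12 (17.9%), against 4.31% of all genes. The YY1 motif AAGATGGCG was found in 8 (11.9%), against 1.64%. The E-box CACGTG, which reads the same on both strands and is bound by MYC, was found in 5 (7.46%), against 8.09%. Of the 67 genes, 35 held at least 1 of the 4 motifs, and the share of all genes that did so was not counted. A match is a description of the letters and not a measured binding site.

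The windows below belong to the genes on which the results turn: 3 genes with some of the widest differences between treatments (Mrpl12, Mrps22, Mrps27), the 3 paralogs of the bacterial protein S18 (Mrps18b, Mrps18a, Mrps18c), and Mrps21, the only one of the 76 genes called higher in any comparison of 8 tumors. Each is given 5′ to 3′ on the gene's own strand, and capitals mark motif matches.
Mrpl12: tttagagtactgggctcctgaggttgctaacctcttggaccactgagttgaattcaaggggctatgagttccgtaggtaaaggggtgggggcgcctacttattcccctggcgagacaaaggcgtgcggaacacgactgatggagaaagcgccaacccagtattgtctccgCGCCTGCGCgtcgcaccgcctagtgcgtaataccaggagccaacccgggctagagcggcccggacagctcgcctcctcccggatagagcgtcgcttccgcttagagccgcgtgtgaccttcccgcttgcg
Mrps22: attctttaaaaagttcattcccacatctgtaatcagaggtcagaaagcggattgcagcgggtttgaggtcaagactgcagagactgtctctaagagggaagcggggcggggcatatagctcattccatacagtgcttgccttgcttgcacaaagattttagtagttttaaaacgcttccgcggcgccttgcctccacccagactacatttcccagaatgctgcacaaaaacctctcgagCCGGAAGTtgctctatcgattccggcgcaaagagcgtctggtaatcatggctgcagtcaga
Mrps27: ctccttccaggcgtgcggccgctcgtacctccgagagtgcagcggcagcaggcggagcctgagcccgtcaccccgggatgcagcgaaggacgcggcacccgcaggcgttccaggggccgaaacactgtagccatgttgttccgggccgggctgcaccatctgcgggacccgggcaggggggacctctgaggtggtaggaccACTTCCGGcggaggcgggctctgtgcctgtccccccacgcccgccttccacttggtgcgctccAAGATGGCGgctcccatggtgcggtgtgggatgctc
Mrps18b: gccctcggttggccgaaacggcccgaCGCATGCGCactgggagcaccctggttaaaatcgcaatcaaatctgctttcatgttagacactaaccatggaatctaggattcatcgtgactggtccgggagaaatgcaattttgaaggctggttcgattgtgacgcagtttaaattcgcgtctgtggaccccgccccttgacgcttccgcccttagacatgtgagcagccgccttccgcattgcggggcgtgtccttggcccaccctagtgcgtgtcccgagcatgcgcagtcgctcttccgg
Mrps18a: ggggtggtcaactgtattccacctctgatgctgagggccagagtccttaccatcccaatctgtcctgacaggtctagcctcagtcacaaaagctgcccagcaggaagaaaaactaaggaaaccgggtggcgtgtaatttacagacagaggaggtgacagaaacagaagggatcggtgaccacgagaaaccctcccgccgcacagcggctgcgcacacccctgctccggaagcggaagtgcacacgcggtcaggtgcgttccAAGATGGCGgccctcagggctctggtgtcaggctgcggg
Mrps18c: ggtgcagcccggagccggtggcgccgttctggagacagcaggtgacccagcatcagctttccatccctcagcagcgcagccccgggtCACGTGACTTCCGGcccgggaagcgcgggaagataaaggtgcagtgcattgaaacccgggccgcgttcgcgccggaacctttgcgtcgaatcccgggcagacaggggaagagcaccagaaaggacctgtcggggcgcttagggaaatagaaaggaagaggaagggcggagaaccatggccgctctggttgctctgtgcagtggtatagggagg
Mrps21: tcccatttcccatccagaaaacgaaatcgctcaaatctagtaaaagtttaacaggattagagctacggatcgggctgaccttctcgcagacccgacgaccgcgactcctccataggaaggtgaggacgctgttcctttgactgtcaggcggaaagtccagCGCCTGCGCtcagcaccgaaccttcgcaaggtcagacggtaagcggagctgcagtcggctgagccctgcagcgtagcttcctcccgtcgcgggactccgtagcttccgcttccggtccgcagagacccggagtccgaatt

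In these windows the match of Mrpl12 (chr11:120484387-120484686, plus strand) was an NRF1 motif that began 80 bases before the start site, and that of Mrps21 (chr3:95871465-95871764, minus strand) an NRF1 motif 90 bases before it. Mrps18b (chr17:35916391-35916690, minus strand) held its NRF1 match 224 bases before the start site. The ETS match of Mrps22 (chr9:98601630-98601929, minus strand) began 11 bases before the start site. Mrps27 (chr13:99344536-99344835, plus strand) held an ETS match 49 bases before the start site and a YY1 match from base 15 of the transcript. A YY1 match from base 12 of the transcript was found for Mrps18a (chr17:46110754-46111053, plus strand), whereas Mrps18c (chr5:100798509-100798808, plus strand) held an E-box that ran directly into an ETS match, 163 and 157 bases before the start site.

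Before the treatments were compared, the tumors were checked for other tissue. Melanocyte markers averaged 12.86 to 13.36 in all 16 tumors. The mean of 18 skeletal muscle genes lay 6.93 above the control mean in MEKi+CD40 tumor 1, 3.97 above it in MEKi+CD40 tumor 3 and 2.69 above it in CD40 tumor 3, against 0.76 or less in the other tumors. The control mean of this list, 4.69, was below background. The fibroblast and matrix list lay 3.47 and 1.63 above its control mean in MEKi+CD40 tumors 1 and 3, 2.22 above it in MEKi tumor 3 and 2.33 above it in CD40 tumor 3. In MEKi+CD40 tumor 1 the 3′ probe set of Gapdh exceeded the 5′ one by 0.38, against −0.06 to 0.08 in the other 15 tumors, the direction that broken RNA gives. Leukocyte markers ranged from 7.32 to 10.51 in MEKi+CD40 tumors, from 5.87 to 8.02 in MEKi tumors, from 9.08 to 11.18 in CD40 tumors and from 7.40 to 9.46 in control tumors. The adipocyte list lay between 5.05 and 6.14 in MEKi+CD40 tumors, above all control tumors (4.89 to 5.02). Its genes Adipoq, Cidec, Lep and Pck1 had mean signals below background. Adipoq was at 6.69, 3.60, 5.22 and 3.42 in MEKi+CD40 tumors 1 to 4, against 3.21 to 3.91 in control tumors. Fabp4 was at 11.91, 9.54, 10.99 and 10.72, against 9.08 to 9.83 in control tumors. The endothelial list lay between 6.68 and 8.43 in MEKi+CD40 tumors against 6.62 to 7.02 in control tumors. The part of leukocytes, fibroblasts, fat, vessels and RNA integrity in the values below was not tested.

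Averaged over the 76 genes, mitochondrial ribosomal protein transcripts were lowest in the tumors given both agents. The mean over the 76 genes stood 0.31, 0.14, 0.48 and 0.31 below the control mean in MEKi+CD40 tumors 1 to 4. In MEKi tumors it stood 0.02, 0.00, 0.18 and 0.04 below, and in CD40 tumors 0.07, 0.03, 0.13 and 0.06 below. Control tumors themselves lay at 0.03, −0.06, 0.01 and 0.02 around their own mean. The combination tumors lay below the other 12, except that MEKi tumor 3 lay under combination tumor 2.

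**Figure D1:**
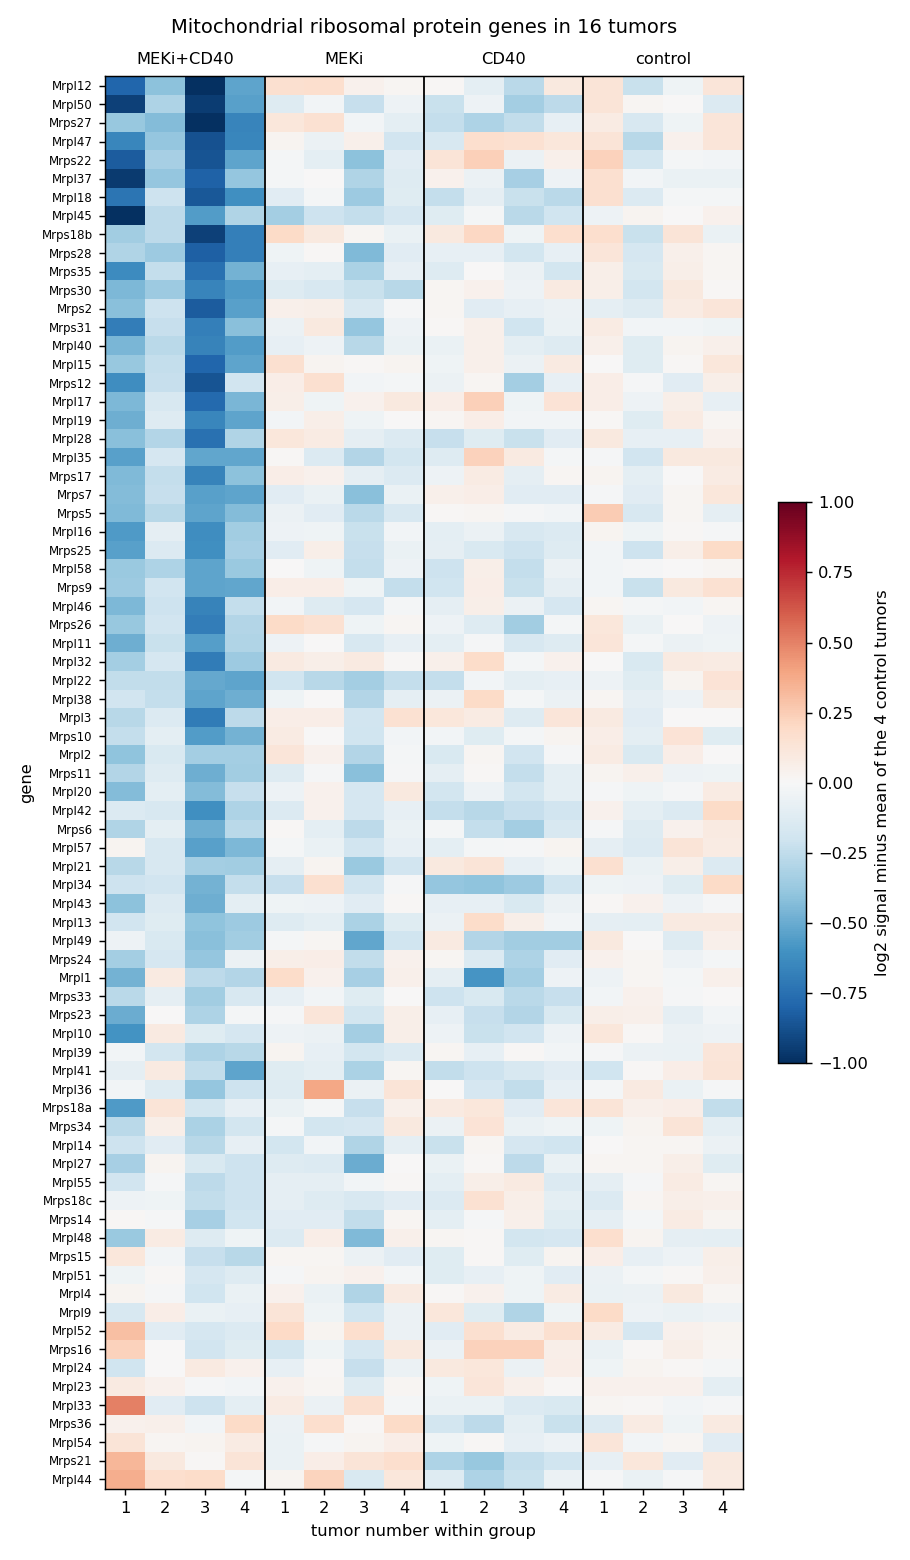
Log2 signal of each of 76 mitochondrial ribosomal protein genes (rows, ordered by the difference between MEKi+CD40 and control means) in 16 tumors (columns, by group), minus the mean of the 4 control tumors of that gene. Colours are limited to ±1. Most rows are blue in all 4 MEKi+CD40 tumors, palest in tumor 2 and darkest in tumor 3, whereas the bottom rows, Mrps21 and Mrpl44 among them, are not.

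Between MEKi+CD40 and control tumors the median difference over the 76 genes was −0.305, against 0.028 over all genes, and 70 of the 76 differences were negative. No mitochondrial ribosomal protein gene passed an adjusted p of 0.05 when the 8 tumors of these groups were fitted alone, with a smallest adjusted p of 0.0517 for Mrpl58, a peptidyl-tRNA hydrolase that frees stalled mitoribosomes. Over all genes in that fit 1 was called higher and 0 lower. At an unadjusted p under 0.05, 48 of the 76 genes were lower and 0 higher, against a background of 14.5% of all genes lower. In 41 of the 76, every MEKi+CD40 tumor lay below every control tumor, a pattern shown by 10.4% of all genes. When the spread was estimated from all 16 tumors in 1 fit, 39 of the 76 were called lower at an adjusted p under 0.05 and 0 higher, against 9.4% of all genes. Most of these calls were lost when the mean of the skeletal muscle genes was added to that fit as a covariate. Without the muscle-rich MEKi+CD40 tumors 1 and 3, the median was −0.235, and 34 were lower at an unadjusted p under 0.05, against 11.2% of all genes. The adjusted calls changed when single tumors were left out. Of the 76 genes, 20 were called lower without MEKi+CD40 tumor 2, and 3 without MEKi+CD40 tumor 1 or without control tumor 2. The share of all genes called with the covariate or with a tumor left out was not counted. These changes may therefore not be particular to the 76 genes.

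**Figure D2:**
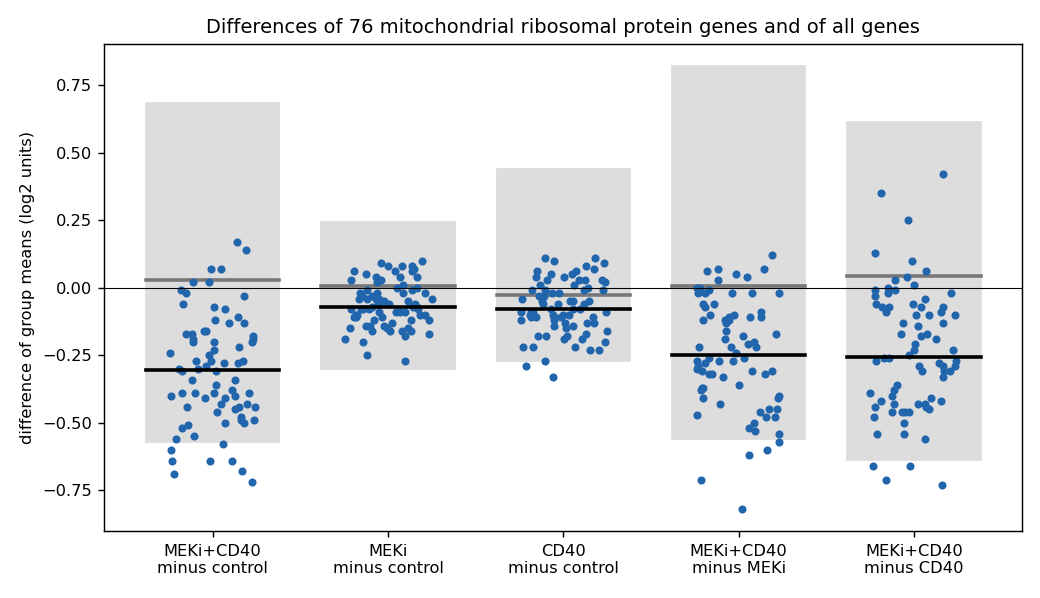
Differences of group means in log2 units for 76 mitochondrial ribosomal protein genes (points, black line at their median) in 5 comparisons of 4 tumors each. Grey boxes span the 5th to 95th percentile of 18193 genes with a grey line at their median. In the 3 comparisons with MEKi+CD40 on top the black line lies at −0.305, −0.248 and −0.253, and in the 2 single-agent comparisons at −0.070 and −0.082.

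With a single agent the medians lay nearer 0. Between MEKi and control tumors the median difference was −0.070, against 0.007 over all genes. In this comparison 3 genes were lower at an unadjusted p under 0.05 (background 4.21%), and 2 lay below every control tumor in every MEKi tumor (background 2.11%). Between CD40 and control tumors the median was −0.082, against −0.028 over all genes, with 10 genes lower at an unadjusted p under 0.05 (background 5.94%) and 9 without overlap (background 3.95%). Without the muscle-rich CD40 tumor 3 this median was −0.051. No gene was called at an adjusted p under 0.05 in either comparison, in the fit of 8 tumors or in that of 16. These comparisons and the one above share the 4 control tumors.

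Set against the MEKi tumors, the median difference of MEKi+CD40 tumors was −0.248, against 0.005 over all genes. Of the 76 genes, 37 were lower and 0 higher at an unadjusted p under 0.05 (background 13.0% lower), and 20 were lower without overlap (background 8.99%). The adjusted test of 8 tumors called 0 of them and 0.786% of all genes lower. Without MEKi+CD40 tumor 2 it called 10 of the 76. In the fit of 16 tumors 28 were called lower, against 8.35% of all genes, and most of these calls were lost with the muscle covariate. The share of all genes called was not counted with the covariate or without MEKi+CD40 tumor 2. Without the muscle-rich tumors the median was −0.146 and 19 genes were lower at an unadjusted p under 0.05, against 8.9% of all genes.

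Set against the CD40 tumors, the median difference of MEKi+CD40 tumors was −0.253, against 0.043 over all genes. Here 5 genes fell and 1 rose at an adjusted p under 0.05, against 3.29% of all genes lower and 3.15% higher. The 5 were Mrps22, Mrpl47, Mrps18b, Mrps30 and Mrps5, and the 1 was Mrps21. At an unadjusted p under 0.05, 36 were lower and 3 higher (background 12% lower), and 29 were lower without overlap (background 8.2%). The fit of 16 tumors called 29 lower, against 7.98% of all genes, and 2 higher, and with the muscle covariate it called fewer lower. Without the muscle-rich tumors, which leaves 2 MEKi+CD40 and 3 CD40 tumors, 22 were lower at an unadjusted p under 0.05 against 12.6% of all genes, 1 was called lower at an adjusted p under 0.05, and the median was −0.168. These calls also depended on the other tumors. Leaving out any single CD40 tumor, or MEKi+CD40 tumor 3 or 4, left 0 or 1 gene called lower. Leaving out MEKi+CD40 tumor 1 or 2 gave 8 or 19. The share of all genes called at an adjusted p under 0.05 was not counted with tumors left out or with the covariate.

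The interaction asked whether adding the antibody moved these genes differently with the inhibitor than without it. Its median over the 76 genes was −0.165, against 0.028 over all genes, and −0.085 without the 3 muscle-rich tumors. At an unadjusted p under 0.05, 20 genes had a negative and 2 a positive interaction, against 8.35% of all genes negative. None passed after adjustment. Without MEKi+CD40 tumor 2, 7 of the 76 passed, and the share of all genes passing there was not counted. The smallest p belonged to Mrpl17 (−0.61 ± 0.15, SE, adjusted p = 0.104), Mrpl47 (−0.66 ± 0.16, adjusted p = 0.106) and Mrpl15 (−0.55 ± 0.14, adjusted p = 0.108), all large-subunit proteins with bacterial counterparts. With the mean of all probe sets the interaction was −0.18 for Mrpl17 and −0.21 for Mrpl47.

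Genes of the large subunit that build the stalk, where translation factors dock, differed among themselves. Mrpl12, the stalk protein itself, had the largest spread over the 16 tumors of all 76 genes (SD 0.379). Its signal was 11.02, 11.40, 10.66 and 11.28 in MEKi+CD40 tumors, 11.97, 11.98, 11.85 and 11.83 in MEKi tumors, 11.82, 11.71, 11.54 and 11.91 in CD40 tumors, and 11.94, 11.59, 11.77 and 11.93 in control tumors. All 4 MEKi+CD40 tumors lay below all 12 others, with a difference from control of −0.72 ± 0.17 (SE, adjusted p = 0.0581), a ratio of 0.608 in linear signal. Without the muscle-rich tumors it was −0.47. Against MEKi tumors the difference was −0.82 ± 0.15 (adjusted p = 0.0501). Mrpl11, which holds the stalk base, was at 9.63, 9.90, 9.57 and 9.82 in MEKi+CD40 tumors and at 10.24, 10.10, 10.06 and 10.08 in control tumors, without overlap (−0.39 ± 0.10, adjusted p = 0.064), and with the mean of its probe sets the difference was −0.20. Mrpl10, to which Mrpl12 is fixed, was at 9.54, 10.23, 10.02 and 9.97 in MEKi+CD40 tumors and at 10.25, 10.15, 10.08 and 10.09 in control tumors. Combination tumors 1, 3 and 4 lay below the controls for Mrpl10 and tumor 2 among them, and the difference was −0.20 ± 0.14 (adjusted p = 0.45).

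Mrpl18, the counterpart of bacterial L18, was at 10.25, 10.77, 10.13 and 10.37 in MEKi+CD40 tumors against 11.14, 10.84, 10.96 and 10.96 in control tumors, without overlap (−0.60 ± 0.14, adjusted p = 0.0608).

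Around the polypeptide exit, Mrpl47, the counterpart of bacterial L29, and Mrpl45, which tethers the mitoribosome to the inner membrane, were both low after the combination but in different patterns. Mrpl47 was at 9.57, 9.83, 9.35 and 9.57 in MEKi+CD40 tumors, at 10.25, 10.16, 10.27 and 10.03 in MEKi tumors, at 10.06, 10.39, 10.37 and 10.33 in CD40 tumors and at 10.35, 9.94, 10.26 and 10.34 in control tumors. It fell by 0.71 ± 0.12 against CD40 tumors (SE, adjusted p = 0.0305). The differences were −0.60 ± 0.11 from MEKi tumors (adjusted p = 0.0501) and −0.64 ± 0.13 from control tumors (adjusted p = 0.0526). With the mean of its 3 probe sets, 1 of them below background, these became −0.26 against CD40 (adjusted p = 0.101), −0.25 against MEKi and −0.31 against control. Mrpl45 was at 9.26, 10.16, 9.86 and 10.12 in MEKi+CD40 tumors and at 10.08, 10.21, 10.18 and 10.25 in MEKi tumors, against 10.37, 10.45, 10.42 and 10.46 in control tumors. Every tumor of both treated groups lay below the controls, with differences of −0.58 ± 0.19 (adjusted p = 0.12) and −0.25 ± 0.07 (adjusted p = 0.592). Tumor 1 of the combination, the richest in muscle transcripts, was the lowest, and without it the difference of the combination from control was −0.38, and −0.29 without both muscle-rich tumors.

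**Figure D3:**
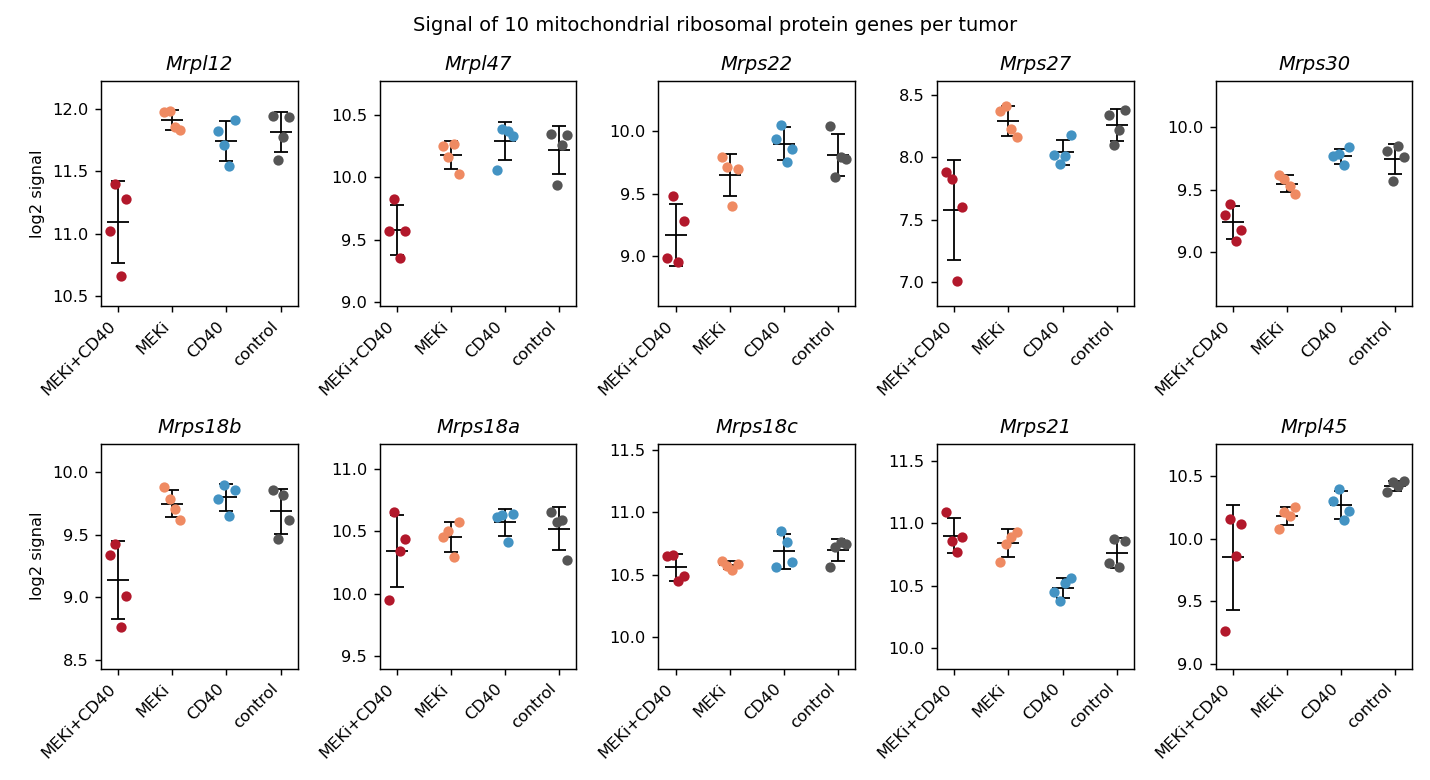
Log2 signal of 10 mitochondrial ribosomal protein genes per tumor (points), with the mean and SD of each group of 4 tumors. Every vertical axis spans 1.8 log2 units. The 4 MEKi+CD40 tumors lie below all control tumors for Mrpl12, Mrpl47, Mrps22, Mrps27, Mrps30, Mrps18b and Mrpl45, and overlap them for Mrps18a, Mrps18c and Mrps21.

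Among large-subunit proteins with no counterpart in the bacterial ribosome were the genes with the smallest p against control. Mrps30, a large-subunit protein despite its name, was at 9.30, 9.39, 9.09 and 9.18 in MEKi+CD40 tumors, at 9.62, 9.59, 9.53 and 9.47 in MEKi tumors, at 9.77, 9.79, 9.70 and 9.84 in CD40 tumors and at 9.81, 9.57, 9.85 and 9.76 in control tumors. It fell by 0.54 ± 0.09 against CD40 tumors (adjusted p = 0.0286), the smallest p of all 76 genes there, and its difference from control was −0.51 ± 0.10 (adjusted p = 0.0517). Mrpl58 was at 10.43, 10.49, 10.27 and 10.43 in MEKi+CD40 tumors against 10.77, 10.79, 10.80 and 10.82 in control tumors, a difference of −0.39 ± 0.07. The control tumors were nearly equal for this gene, and the groups did not overlap. With the mean of all its probe sets the difference was −0.14. Mrpl40 differed by −0.49 ± 0.10 from control (adjusted p = 0.0526), Mrpl50 by −0.69 ± 0.15 and Mrpl37 by −0.64 ± 0.14. Mrpl41 differed by −0.20 ± 0.14, with MEKi+CD40 tumors at 10.85, 11.03, 10.69 and 10.41 and control tumors at 10.74, 10.95, 11.01 and 11.07.

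By subunit and origin, the lowest median was that of the small-subunit genes listed as mitochondria-specific. The 10 of them, Mrps18b included although it is a paralog of a bacterial protein, differed from control by a median of −0.454, and all 10 differences were negative, with 8 at an unadjusted p under 0.05 (background 14.5%). For the 16 small-subunit genes shared with bacteria the median was −0.326 with 15 negative, for the 29 shared large-subunit genes −0.302 with 27 negative, and for the 20 mitochondria-specific large-subunit genes −0.279 with 18 negative. Mrps18a stood in the last list. Without Mrps18b and Mrps18a the medians of the mitochondria-specific lists were −0.407 and −0.283. Without the muscle-rich tumors the medians lay closer together. They were −0.279 for the mitochondria-specific and −0.225 for the shared small-subunit genes. For the large subunit they were −0.218 for the shared and −0.229 for the mitochondria-specific genes. In the same order, 6 of 10, 7 of 16, 11 of 29 and 10 of 20 were lower at an unadjusted p under 0.05 (background 11.2%). Whether these medians differ was not tested.

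Mrps22, a mitochondria-specific protein whose human gene is mutated in mitochondrial disease, was at 8.98, 9.48, 8.95 and 9.28 in MEKi+CD40 tumors, at 9.79, 9.71, 9.40 and 9.70 in MEKi tumors, at 9.94, 10.05, 9.75 and 9.86 in CD40 tumors and at 10.04, 9.63, 9.79 and 9.78 in control tumors. The drop of 0.73 ± 0.13 against CD40 tumors (adjusted p = 0.0333) was the widest among the 6 called genes, and MEKi tumor 3 alone overlapped the combination. Mrps27, a pentatricopeptide repeat protein, was at 7.88, 7.83, 7.01 and 7.60 in MEKi+CD40 tumors against 8.34, 8.10, 8.22 and 8.38 in control tumors. Tumor 3 was lowest and the groups did not overlap (−0.68 ± 0.19, adjusted p = 0.083). Mrps5, a counterpart of bacterial S5, was at 8.17, 8.33, 8.08 and 8.18 in MEKi+CD40 tumors against 8.62, 8.63, 8.60 and 8.58 in CD40 tumors, and fell by 0.42 ± 0.08 (adjusted p = 0.0318), a call lost with the mean of all its probe sets (−0.23, adjusted p = 0.179). Mrps12, at the decoding centre, was at 10.00, 10.39, 9.76 and 10.43 in MEKi+CD40 tumors against 10.69, 10.61, 10.51 and 10.68 in control tumors, also without overlap (−0.48 ± 0.15, adjusted p = 0.12), and differed by −0.21 without the muscle-rich tumors.

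The 3 paralogs of bacterial S18 sit at different places, Mrps18a in the large subunit and Mrps18b and Mrps18c in the small one, and their signals differed. Mrps18b was at 9.34, 9.43, 8.76 and 9.01 in MEKi+CD40 tumors, at 9.79, 9.90, 9.65 and 9.86 in CD40 tumors and at 9.86, 9.47, 9.82 and 9.62 in control tumors. It fell by 0.66 ± 0.15 against CD40 tumors (adjusted p = 0.0473), and its MEKi+CD40 tumors also lay below all control tumors. The differences given for the other paralogs are from control, so they are not directly comparable with this drop against CD40 tumors. Mrps18a was at 9.95, 10.65, 10.34 and 10.44 in MEKi+CD40 tumors against 10.65, 10.57, 10.59 and 10.27 in control tumors, with only tumor 1 below the control range (−0.17 ± 0.16, adjusted p = 0.56). Mrps18c was at 10.65, 10.66, 10.45 and 10.49 in MEKi+CD40 tumors against 10.56, 10.72, 10.76 and 10.75 in control tumors (−0.13 ± 0.09, adjusted p = 0.41). The difference between the paralogs was not tested.

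A few genes did not share the negative differences. Mrps21, the counterpart of bacterial S21, was at 11.09, 10.86, 10.77 and 10.89 in MEKi+CD40 tumors, at 10.69, 10.83, 10.89 and 10.93 in MEKi tumors, at 10.45, 10.38, 10.52 and 10.56 in CD40 tumors and at 10.68, 10.87, 10.65 and 10.86 in control tumors. Its rise of 0.42 ± 0.09 against CD40 tumors (adjusted p = 0.0403) came with low CD40 tumors, all 4 of which lay below the other 12. MEKi+CD40 and control tumors overlapped (0.14 ± 0.10, adjusted p = 0.454). Another, dimmer probe set of Mrps21 gave −0.23 against CD40 tumors, and with the mean of both the call was lost (0.10, adjusted p = 0.573). Mrpl44, an RNase III-like protein of the large subunit, was at 11.02, 10.83, 10.84 and 10.64 in MEKi+CD40 tumors against 10.65, 10.59, 10.65 and 10.75 in control tumors (0.17 ± 0.09, adjusted p = 0.335). Another probe set of Mrpl44 gave −0.32 at an unadjusted p of 0.0368, so these probe sets disagree in direction. Mrps36, the dehydrogenase subunit, was at 10.39, 10.40, 10.32 and 10.54 in MEKi+CD40 tumors against 10.21, 10.43, 10.31 and 10.44 in control tumors (0.07 ± 0.09, adjusted p = 0.706). Mrpl33 and Mrpl52 were high in MEKi+CD40 tumor 1 alone. Mrpl33 was at 10.74, 10.13, 10.03 and 10.14 in MEKi+CD40 tumors against 10.26, 10.25, 10.21 and 10.23 in control tumors (0.02 ± 0.15). Mrpl54 differed from control by 0.07 ± 0.08 (adjusted p = 0.666) and Mrpl24 from MEKi tumors by 0.07 ± 0.09 (adjusted p = 0.718). Mrpl23 and Mrpl51 varied least, with an SD over 16 tumors of 0.064 and 0.066, and differed from control by 0.02 ± 0.07 and −0.08 ± 0.07.

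For 42 of the 76 genes other probe sets were present, 80 in all, of which 65 lay above background. Of these 65, 48 had the same sign as the chosen probe set between MEKi+CD40 and control tumors, and 1, that of Mrpl44, opposed it at an unadjusted p under 0.05. Between MEKi+CD40 and CD40 tumors 40 of the 65 had the same sign, and 3, those of Mrpl1, Mrpl35 and Mrpl48, opposed the chosen probe set at an unadjusted p under 0.05. Mrpl15, a counterpart of bacterial L15 with 8 probe sets, gave negative differences in all 8, between −0.65 and −0.23.

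After single agents a few genes lay below all control tumors, none past the adjusted threshold. Over all genes, 2.11% did so in MEKi tumors and 3.95% in CD40 tumors. For MEKi the share of the mitochondrial ribosomal protein genes was near that of all genes. Beside Mrpl45, Mrpl22 stood below all control tumors in all MEKi tumors (10.60, 10.52, 10.46 and 10.56 against 10.75, 10.68, 10.83 and 10.94 in control, −0.27 ± 0.08, adjusted p = 0.615). In CD40 tumors Mrpl34 was at 9.55, 9.54, 9.58 and 9.74 against 9.90, 9.89, 9.82 and 10.13 in control tumors (−0.33 ± 0.09, adjusted p = 0.493). Mrps33 was at 11.33, 11.39, 11.27 and 11.31 in CD40 tumors against 11.51, 11.58, 11.53 and 11.54 in control tumors (−0.22 ± 0.06, adjusted p = 0.523), also without overlap. The positive differences with the smallest p were 0.10 for Mrpl12, 0.08 for Mrps26 and 0.09 for Mrpl52 in MEKi tumors, and 0.11 for Mrps16, 0.10 for Mrpl17 and 0.11 for Mrps18b in CD40 tumors.

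Pooled over the groups, the genes also varied together within them, most widely among the combination tumors. The mean over the 76 genes had an SD of 0.14 in MEKi+CD40 tumors, 0.08 in MEKi tumors, 0.04 in CD40 tumors and 0.04 in control tumors. With group means removed, the correlation of a gene with the median of the other genes over 16 tumors had a median of 0.65 and a range of −0.09 (Mrps21) to 0.93 (Mrpl40), and was over 0.5 for 54 genes and under 0.2 for 6. All of these values come from the same 16 arrays, so this is a description. The correlation was not computed for each group, and the MEKi+CD40 tumors weigh most in it. The pooled SD within groups had a median of 0.136 over the 76 genes, against 0.179 over the 12699 genes above background. Among MEKi+CD40 tumors, tumor 3 was lowest for 55 of the 76 genes and tumor 2 highest for 51. Tumor 1 was lowest for 14 genes and highest for 19, so it was the least uniform. Counted singly, 57, 47, 67 and 65 of the 76 genes lay below all control tumors in MEKi+CD40 tumors 1 to 4. For all genes this share was 33.7%, 24%, 29.0% and 26.1% in the same tumors.

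Proliferation transcripts followed the extremes of this order. The mean of 13 such genes lay 1.01, 0.77, 1.86 and 1.23 below the control mean in MEKi+CD40 tumors 1 to 4, nearest 0 in tumor 2 and farthest in tumor 3, as for the mitochondrial ribosomal proteins. In MEKi tumors it was 0.15, −0.03, −0.18 and −0.50, in CD40 tumors 0.02, −0.09, −0.25 and 0.00, and in control tumors 0.28, −0.53, 0.03 and 0.21. Between MEKi+CD40 and control tumors all 13 were lower at an unadjusted p under 0.05 (background 14.5%) and 0 after adjustment, with a median difference of −1.23. Against CD40 tumors 11 of the 13 fell at an adjusted p under 0.05 (background 3.29%). Without the muscle-rich tumors the median against control was −0.958, and 11 were again called against CD40 tumors. The share of all genes called there was not counted. The part of proliferation in the values of the mitochondrial ribosomal protein genes was not tested.

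The rest of the mitochondrial translation apparatus showed differences of like size. Against control, MEKi+CD40 tumors had a median difference of −0.345 over 11 translation factors, −0.289 over 16 mitochondrial aminoacyl-tRNA synthetases and −0.268 over 10 genes of mitochondrial DNA maintenance and transcription, and in these lists every gene was negative. Over 23 assembly factors of the mitoribosome the median was −0.270 with 20 negative. The 4 mitoribosome proteins that carry other symbols, Ptcd3, Dap3, Chchd1 and Gadd45gip1, were all negative with a median of −0.266, and Ptcd3 differed most (−0.80 ± 0.18, adjusted p = 0.0553). None of these genes was called against control in the fit of 8 tumors. Against CD40 tumors Tsfm, the exchange factor of the elongation factor Tufm, fell by 0.50 ± 0.12 (adjusted p = 0.0499) and Tfb1m, which methylates the small ribosomal RNA, by 0.43 ± 0.09 (adjusted p = 0.0414). Against MEKi tumors the mitochondrial DNA helicase Twnk fell by 0.47 ± 0.08 (adjusted p = 0.0496). These 3 calls were lost without the muscle-rich tumors, and the medians against control were −0.098 for the translation factors, −0.198 for the synthetases, −0.186 for mitochondrial DNA genes and −0.160 for the assembly factors.

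Among 9 nuclear regulators of mitochondrial genes, 8 were negative against control, with a median of −0.360. Nrf1, whose motif was sought above, was at 6.82, 7.36, 7.00 and 7.31 in MEKi+CD40 tumors against 7.79, 7.90, 7.66 and 7.80 in CD40 tumors, and fell by 0.67 ± 0.13 (adjusted p = 0.0357). Gabpb1, a subunit of GABP, was at 6.86, 6.98, 6.12 and 6.74 in MEKi+CD40 tumors against 7.41, 7.76, 7.60 and 7.44 in CD40 tumors, and fell by 0.88 ± 0.19 (adjusted p = 0.0405). Nrf1 remained called without the muscle-rich tumors (−0.50 ± 0.10, adjusted p = 0.0489) and Gabpb1 was not (−0.68 ± 0.15, adjusted p = 0.0569). Gabpa, the subunit of GABP that binds DNA, differed by 0.02 ± 0.12 from CD40 tumors (adjusted p = 0.953) and by −0.15 ± 0.10 from control. Yy1 differed by −0.22 ± 0.09 from CD40 tumors (adjusted p = 0.188) and Myc by −1.04 ± 0.44 (adjusted p = 0.225), with overlap. The 15 ribosomal protein genes with an NRF1 match had a median difference from control of −0.38 and the 12 with an ETS match one of −0.22. It was −0.30 for the 5 with an E-box and −0.30 for the 8 with a YY1 match. The 32 genes with none of the motifs had −0.36. No test of these medians was made.

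Subunits of the respiratory chain, among them the partners of the proteins that mitoribosomes make, had a median near 0. The list of 82 nuclear-encoded subunits also held the Atp5 genes of ATP synthase, and Cox6a2, Cox7a1 and Cox8b. Over these 82 the median difference between MEKi+CD40 and control tumors was 0.035, with 30 negative. Their mean lay 0.12, 0.08, 0.01 and 0.10 above the control mean in MEKi+CD40 tumors and 0.17, 0.17, 0.06 and 0.12 below it in CD40 tumors. Between CD40 and control tumors 77 of the 82 differences were negative, with a median of −0.112 and 0 called. Against CD40 tumors 6 of the 82 rose at an adjusted p under 0.05 and 0 fell, against 3.15% of all genes higher and 3.29% lower. Without the muscle-rich tumors 2 rose, and the median against control was 0.080. The share of all genes called there was not counted, and the part of muscle transcripts in the list mean was not tested. Uqcr11, of complex III, rose by 0.40 ± 0.07 (adjusted p = 0.0312), and Cox7a1, the muscle form of a complex IV subunit, by 2.00 ± 0.40 (adjusted p = 0.0364). Cox7a1 was at 8.67, 8.34, 7.97 and 9.05 in MEKi+CD40 tumors against 6.69, 5.38, 7.35 and 6.59 in CD40 tumors, and so was high also in combination tumors 2 and 4, whose mean over the 18 muscle genes was at the control level. Control tumors had 7.40, 8.07, 7.48 and 8.27, so that all CD40 tumors lay below all controls, and MEKi+CD40 tumors 1, 2 and 4 above them. The call of Cox7a1 against CD40 tumors held without the muscle-rich tumors (2.48 ± 0.41, adjusted p = 0.0351) and that of Uqcr11 was lost (0.42 ± 0.10, adjusted p = 0.0658). Ribosomal proteins of the cytosol, 43 genes, had a median difference of −0.050 between MEKi+CD40 and control tumors, with 33 negative, and 0 were called.

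**Figure D4:**
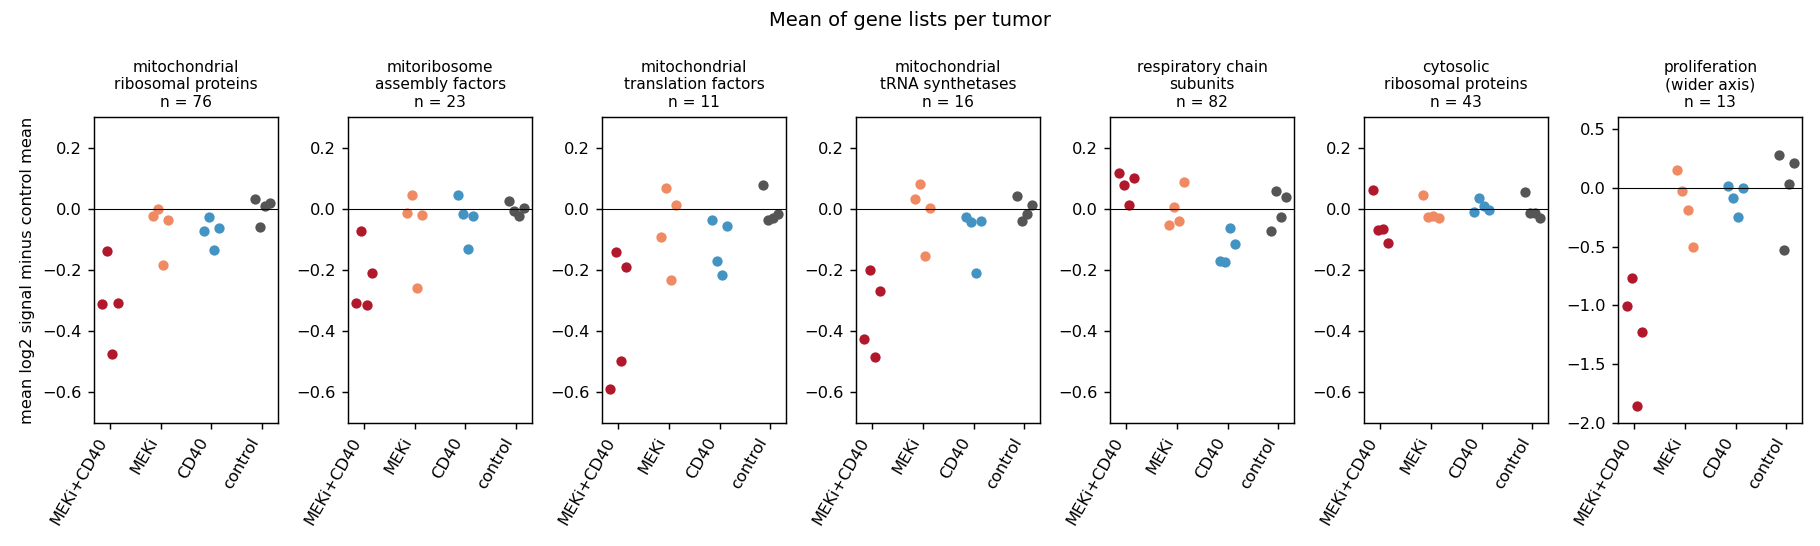
Mean log2 signal of 7 gene lists in each of 16 tumors (points), minus the mean of the 4 control tumors, with the number of genes in each list. The proliferation panel has a wider axis than the other 6. The MEKi+CD40 tumors lie at −0.31, −0.14, −0.48 and −0.31 for mitochondrial ribosomal proteins and at 0.12, 0.08, 0.01 and 0.10 for respiratory chain subunits.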

How the data were processed

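RNA of 16 snap-frozen tumor pieces (200 ng each) was labelled by a 3′ amplification method and hybridised to 1-colour Affymetrix mouse arrays. The deposited values are log2 signals that the authors obtained by RMA in Chipster (version not given in the sources used here), so background correction and normalization across arrays were already done. Of 45101 probe sets, 64 control probe sets were left out. A single gene symbol was annotated for 34945 probe sets, several for 932 and none for 9160. Groups came from the labels.

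Each pair of groups was compared with limma 3.58.1 (R 4.3.3) on its 8 arrays, by empirical Bayes with Benjamini-Hochberg adjustment over all 45037 probe sets and a threshold of 0.05, after the study's own description, and the interaction on all 16. The ± values of differences are standard errors. Counts over all genes use the brightest probe set of each of 18193 genes. The fits were tested on simulated arrays with independent normal errors and the same spread in every group. For MEKi+CD40 against control, a log2 change of 0.5 was called in 23.9% of 67 probe sets and one of 1 in 80.6%. In that run 10 unchanged probe sets were called. The real groups differed in spread, so these shares may not hold for them. The number of arrays limits the precision. Array correlations lay between 0.954 and 0.996, and no array was a duplicate.

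Members, gene lists and tests were chosen with earlier results of these data known. Genes named are those called, those of smallest p, those of extreme spread, and members of fixed roles. Mrpl50, Mrpl37, Mrpl33, Cox7a1 and the other genes named from the pathway lists were picked after their values were seen. Alternatives were other normalizations, weights, filters, samples and a replicate block. The gene lists without muscle-rich tumors and the subunit lists without S18 paralogs were added after seeing the data. Protein sequences were not analysed here.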

Additional observations from a re-analysis of the deposited data

Results flagged for a closer look

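In 132 groups of 4 tumors, for the genes named, the highest or lowest tumor was compared with the other 3 by Dixon's ratio at its 95% limit. Chance passes about 1 in 20 such groups, and 7 of the 132 passed. Mrpl52 stood high in MEKi+CD40 tumor 1 at 11.62, against 11.21, 11.15 and 11.18 in the other MEKi+CD40 tumors. In MEKi tumors, Mrpl15 stood high in tumor 1 at 11.46 against 11.33, 11.31 and 11.33. MEKi tumor 3 stood low for Mrpl23 at 10.59 against 10.76, 10.74 and 10.74, and for Mrpl40 at 10.08 against 10.28, 10.31 and 10.29. In CD40 tumors, Mrps18a stood low in tumor 3 at 10.41 against 10.61, 10.63 and 10.64. In control tumors, Mrpl23 stood low in tumor 4 at 10.62 against 10.76 in each of the others, and Mrpl40 in tumor 2 at 10.24 against 10.41, 10.39 and 10.41.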

How the results depend on the processing

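The median difference of the 76 genes stayed negative in every comparison under every alternative run. It ranged from −0.364 to −0.224 for MEKi+CD40 against control, from −0.315 to −0.146 against MEKi, from −0.313 to −0.167 against CD40 and from −0.21 to −0.085 for the interaction. It ranged from −0.085 to −0.029 for MEKi against control, and for CD40 against control cyclic loess gave −0.036 in place of −0.082. Counts of calls were less stable, and the cause was not tested. Apart from genes called lower with all 16 arrays, the share of all genes called under these alternatives was not counted. The changes in counts below, that with the muscle covariate included, may therefore not be particular to the 76 genes. The leave-one-out fits, which hold fewer tumors, called more genes in some cases and fewer in others. Against control, the 0 genes called lower became 39 with all 16 arrays, 13 with a filter on low signal and 20 with array weights. Each tumor left out gave 0 to 20. Against MEKi, the 0 became 28, 3 and 5 with all arrays, the filter and the weights. They became 1 with a trended robust prior, 1 with the mean of all probe sets and 0 to 10 with each tumor left out. Against CD40, the 5 called lower became 29, 12 and 18 with all arrays, the filter and the weights. They became 8 with cyclic loess, 0 with the replicate block, 1 without the muscle-rich tumors and 0 to 19 with each tumor left out. The 1 called higher there became 2 with all 16 arrays, 0 with the block, the mean of all probe sets or without the muscle-rich tumors, and 0 to 1 with each tumor left out. In the interaction, the 0 called lower became 4 with array weights and 0 to 7 with each tumor left out. The muscle score was a covariate in the fit of all 16 arrays. Adding it to that fit changed 39 called lower to 7 against control, 28 to 4 against MEKi and 29 to 19 against CD40. MEKi against control could not be run without muscle-rich tumors, since neither group held any. The deviations of same-numbered tumors had correlations of −0.635 to 0.589, with both signs. The labels do not say that the numbers mark pairs, so they were not used as pairs in the main fits. The replicate block called 0 genes in every comparison.

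Against control, Mrpl23 (0.02) changed sign with median centring (−0.00), array weights (−0.00), the muscle covariate (−0.01), and without control tumor 4 (−0.02), MEKi+CD40 tumor 1 (−0.00) or the muscle-rich tumors (−0.00). Mrps18a became 0.02 without the muscle-rich tumors and 0.04 with the covariate. With the mean of all probe sets, Mrpl44 became −0.15 against control and −0.15 against MEKi, Mrps21 became −0.02 against control, and Mrpl17 −0.02 for CD40 against control.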
